A study of Mus musculus with 12 samples.

Results

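The genes described here are the Wnt ligands, their receptors and their modulators: each protein-coding gene of the mouse GRCm38 annotation whose symbol is Wnt, Fzd, Sfrp or Dkk followed by a number, together with Lgr4, Lgr5, Lgr6, Lrp5, Lrp6, Axin2, Rnf43 and Znrf3. They number 45 of 21631 genes on the autosomes and the X chromosome, with 19 ligands, 15 receptors, 8 secreted inhibitors and 3 feedback inhibitors. The rule uses symbols and no measured value, though it was set with earlier results of these data known. Open chromatin was mapped by Omni-ATAC-seq, in which a transposase cuts accessible DNA, in alveolar type II (AT2) cells, the surfactant-secreting cells that also renew the alveolar lining. The cells were sorted from lungs of BALB/c mice aged 6 to 8 weeks, collected at day 7 after tumour cells, labelled, had been given into the tail vein. The tumour cells were 4T1, a mouse mammary carcinoma line, or CT26, a mouse colon carcinoma line, both of BALB/c origin. In each model, AT2 cells were taken from the metastatic niche and from distal lung, which gives 4 groups of 3 libraries: 4T1 distal, 4T1 niche, CT26 distal and CT26 niche. Each library used 50000 sorted cells from a pool of 5 lungs, so the spread between libraries is a spread between pools and not between single mice. All 4 groups came from lungs of tumour-injected mice, and no uninjected lung was analysed here. How niche cells were told from distal cells in the sort is not given in the sources used here.

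Wnt proteins are secreted lipid-modified ligands that bind Frizzled receptors together with the coreceptors Lrp5 or Lrp6. Receptor binding stops the destruction of beta-catenin, which then enters the nucleus and acts with TCF and LEF factors on target genes, Axin2 among them. The secreted Sfrp proteins bind the ligands, and Dkk1, Dkk2 and Dkk4 bind the coreceptors. Dkk3 is a divergent Dkk protein, counted here with the secreted inhibitors by its symbol. The membrane ubiquitin ligases Rnf43 and Znrf3 remove Frizzled from the surface unless R-spondin bound to Lgr4, Lgr5 or Lgr6 clears them. In the alveolus, Axin2 marks AT2 cells with stem cell activity, and Wnt ligands from neighbouring fibroblasts and from AT2 cells themselves are known to maintain them.

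The start-site windows of 6 members are shown because their genes carry the comparisons that follow: Wnt5b, Lgr4 and Lgr6 passed the test between the tumour models, the windows of Wnt6 and Wnt10b lay under a peak in some libraries and not in others, and Axin2 is the pathway's own target. Each window runs from 250 bases before to 50 bases after a RefSeq start site (GRCm38.p6), 5′ to 3′ on the gene's strand. Capitals mark matches on either strand to CTTTGAT or CTTTGAA (TCF/LEF), TGANTCA (AP-1), GGAATG (TEAD), TTGCNNAA (C/EBP), CACTTGA (NKX2-1) or GGGCGG (GC box), and neighbouring GC boxes can overlap. 2 of the RefSeq start sites of Wnt5b are given. Wnt5b and Lgr6 lie on the minus strand, as does Wnt10b, and the others on the plus strand.
Wnt5b, upstream start site (chr6:119544298-119544597): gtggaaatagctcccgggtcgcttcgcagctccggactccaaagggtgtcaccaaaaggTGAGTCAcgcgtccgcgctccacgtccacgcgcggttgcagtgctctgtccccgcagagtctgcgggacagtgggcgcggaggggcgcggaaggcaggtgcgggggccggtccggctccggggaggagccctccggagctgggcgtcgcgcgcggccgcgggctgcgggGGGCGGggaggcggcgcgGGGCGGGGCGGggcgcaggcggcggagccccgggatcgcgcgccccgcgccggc
Wnt5b, downstream start site (chr6:119449337-119449636): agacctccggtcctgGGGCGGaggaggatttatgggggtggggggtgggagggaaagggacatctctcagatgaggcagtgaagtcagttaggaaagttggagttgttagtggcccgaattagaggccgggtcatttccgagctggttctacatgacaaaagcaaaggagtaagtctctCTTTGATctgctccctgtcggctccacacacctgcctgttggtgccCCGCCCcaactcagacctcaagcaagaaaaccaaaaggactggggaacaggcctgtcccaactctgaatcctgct
Lgr4 (chr2:109917397-109917696): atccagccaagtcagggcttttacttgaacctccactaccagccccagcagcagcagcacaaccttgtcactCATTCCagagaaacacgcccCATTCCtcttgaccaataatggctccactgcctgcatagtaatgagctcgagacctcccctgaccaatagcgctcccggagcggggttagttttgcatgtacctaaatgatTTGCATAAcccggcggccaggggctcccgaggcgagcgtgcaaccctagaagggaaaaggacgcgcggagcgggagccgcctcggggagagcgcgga
Lgr6 (chr1:135105227-135105526): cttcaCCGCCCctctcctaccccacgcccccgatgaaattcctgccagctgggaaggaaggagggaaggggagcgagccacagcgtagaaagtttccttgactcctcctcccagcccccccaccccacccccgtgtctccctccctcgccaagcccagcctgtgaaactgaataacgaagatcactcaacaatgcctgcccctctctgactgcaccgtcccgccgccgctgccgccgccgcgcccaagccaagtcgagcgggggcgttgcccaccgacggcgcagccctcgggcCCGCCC
Wnt6 (chr1:74771642-74771941): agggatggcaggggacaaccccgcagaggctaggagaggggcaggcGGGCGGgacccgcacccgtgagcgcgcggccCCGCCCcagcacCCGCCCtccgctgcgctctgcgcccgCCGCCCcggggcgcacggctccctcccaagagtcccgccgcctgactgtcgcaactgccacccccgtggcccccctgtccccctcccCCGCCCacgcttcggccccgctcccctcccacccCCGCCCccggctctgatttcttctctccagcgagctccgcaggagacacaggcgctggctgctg
Wnt10b (chr15:98778101-98778400): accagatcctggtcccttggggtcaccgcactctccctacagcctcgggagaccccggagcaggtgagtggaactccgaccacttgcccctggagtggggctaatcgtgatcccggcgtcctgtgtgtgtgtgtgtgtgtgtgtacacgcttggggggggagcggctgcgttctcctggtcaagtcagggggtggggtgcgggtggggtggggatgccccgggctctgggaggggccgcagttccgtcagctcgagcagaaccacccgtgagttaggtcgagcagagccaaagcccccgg
Axin2 (chr11:108920099-108920398): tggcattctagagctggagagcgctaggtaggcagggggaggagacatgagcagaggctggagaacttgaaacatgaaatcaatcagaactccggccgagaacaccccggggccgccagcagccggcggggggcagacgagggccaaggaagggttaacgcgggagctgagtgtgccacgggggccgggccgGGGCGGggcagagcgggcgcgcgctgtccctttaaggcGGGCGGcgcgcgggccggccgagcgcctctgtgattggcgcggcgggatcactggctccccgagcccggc

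RefSeq windows were at hand for 29 of the 45 members. A GC box stood in the windows of 21 of these 29 genes (72.4%, against 49.8% of all genes with a window), and the median GC content of member windows was 66.7% against 56.7% over all genes. TCF/LEF letters stood in the windows of Wnt5b, Wnt11 and Dkk1 (10.3% of members, 8.84% of all genes). In Wnt5b, CTTTGAT lay at the downstream start site printed above, whereas TGAGTCA, a form of the AP-1 letters, lay at the upstream one. AP-1 letters were in 3.45% of member windows against 8.19% of all genes, TEAD letters in 6.9% against 15.4%, C/EBP letters in 13.8% against 11.8% and NKX2-1 letters in 6.9% against 3.53%. A match describes the letters in the window and is no evidence that a factor binds there.

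The deposited lists held 42067 to 66911 broad peaks a library, which together covered 31.4 to 51.9 Mb of the genome. The groups were ordered alike in both counts, from CT26 distal (42067 to 50093 peaks) through CT26 niche (51005 to 55529) and 4T1 distal (56330 to 58237) to 4T1 niche (63722 to 66911). No read counts come with such lists and the sequencing depth at a peak is unknown, so the level of a gene below is the length under peaks in the gene and 10 kb to each side, scaled for tests to the mean total covered length. All 10 AT2 marker loci, Sftpc and Abca3 among them, had peaks in every group. Adgre1 and Krt5, markers of macrophages and basal cells, had none in any library. Other markers of these cells had peaks in every group: Csf1r, Spi1, Mrc1 and Cd68 of macrophages and monocytes, and Trp63 of basal cells. The 6 macrophage and monocyte markers still summed to 0.213 to 0.239 kb per Mb of covered length in 4T1 distal libraries. The sums were 0.219 to 0.223 in 4T1 niche, 0.228 to 0.250 in CT26 distal and 0.216 to 0.248 in CT26 niche libraries. 4 lymphoid markers summed to 0.1585 to 0.1796 and 0.1351 to 0.1587 in 4T1 distal and niche libraries. For CT26 distal and niche libraries the lymphoid sums were 0.1256 to 0.1769 and 0.1151 to 0.1521. 4 neutrophil markers summed to 0.034 to 0.038 and 0.033 to 0.047 in 4T1 distal and niche libraries. For CT26 distal and niche libraries the neutrophil sums were 0.026 to 0.037 and 0.032 to 0.036. 6 tumour-line markers summed to 0.290 to 0.350 and 0.300 to 0.335 in 4T1 distal and niche libraries. In CT26 distal and niche libraries they summed to 0.261 to 0.329 and 0.280 to 0.376. Ptprc, the common leukocyte gene, had a peak in the CT26 niche group and in no other group. The summed level of 8 fibroblast and mesenchyme markers was 0.111 to 0.181 kb per Mb of covered length in 4T1 distal and 0.193 to 0.224 in 4T1 niche libraries, and 0.125 to 0.168 in CT26 distal against 0.178 to 0.278 in CT26 niche libraries. Among these, Col3a1 had no peak in either CT26 group or in 4T1 distal libraries. Endothelial markers summed to 0.184 to 0.193 kb per Mb in 4T1 distal and 0.215 to 0.282 in 4T1 niche libraries, while the 2 CT26 groups overlapped. In CT26, 6 alveolar type I markers summed to 0.460 to 0.471 kb per Mb in distal and 0.484 to 0.524 in niche libraries, and 5 club, ciliated and basal cell markers to 0.191 to 0.204 in distal and 0.144 to 0.164 in niche libraries, whereas in 4T1 the groups overlapped for both. The 10 AT2 markers summed to 1.26 to 1.46 kb per Mb in 4T1 distal and 1.20 to 1.31 in 4T1 niche libraries. In CT26 they summed to 1.14 to 1.51 in distal and 1.20 to 1.27 in niche libraries. These groups overlapped in both models. 1 of the 10 was called lower in the niche over both models (limma adjusted p = 0.0249), where 2.38% of all loci passed. Their median log2 change was -0.11 in 4T1 and -0.08 in CT26, beside -0.05 and -0.04 over all loci. The part of these marker levels in the results below was not tested.

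Most Wnt genes lay in open chromatin in these cells. A peak stood in the locus of 37 of the 45 members in all 12 libraries (82.2%, against 71.2% of all genes). Fzd10 and Dkk4, a receptor and a secreted inhibitor, had no peak in any library. The other 6 had peaks in part of the libraries: Wnt8a in 10, Dkk3 in 9, Wnt3 in 7, Wnt16 and Dkk1 in 5 each, and Wnt5a in 4. Peaks covered a median of 4.34% of a member locus against 3.16% over all genes. By role the median was 9.85% for the feedback inhibitors, 5.03% for the ligands, 4.81% for the receptors and 1.55% for the secreted inhibitors. The most densely covered loci per length were those of Fzd7 (16.3%), Fzd8 (11.96%) and Rnf43 (10.4%). 24 of the member loci held part of another gene, so peaks there need not belong to the Wnt gene.

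**Figure D1:**
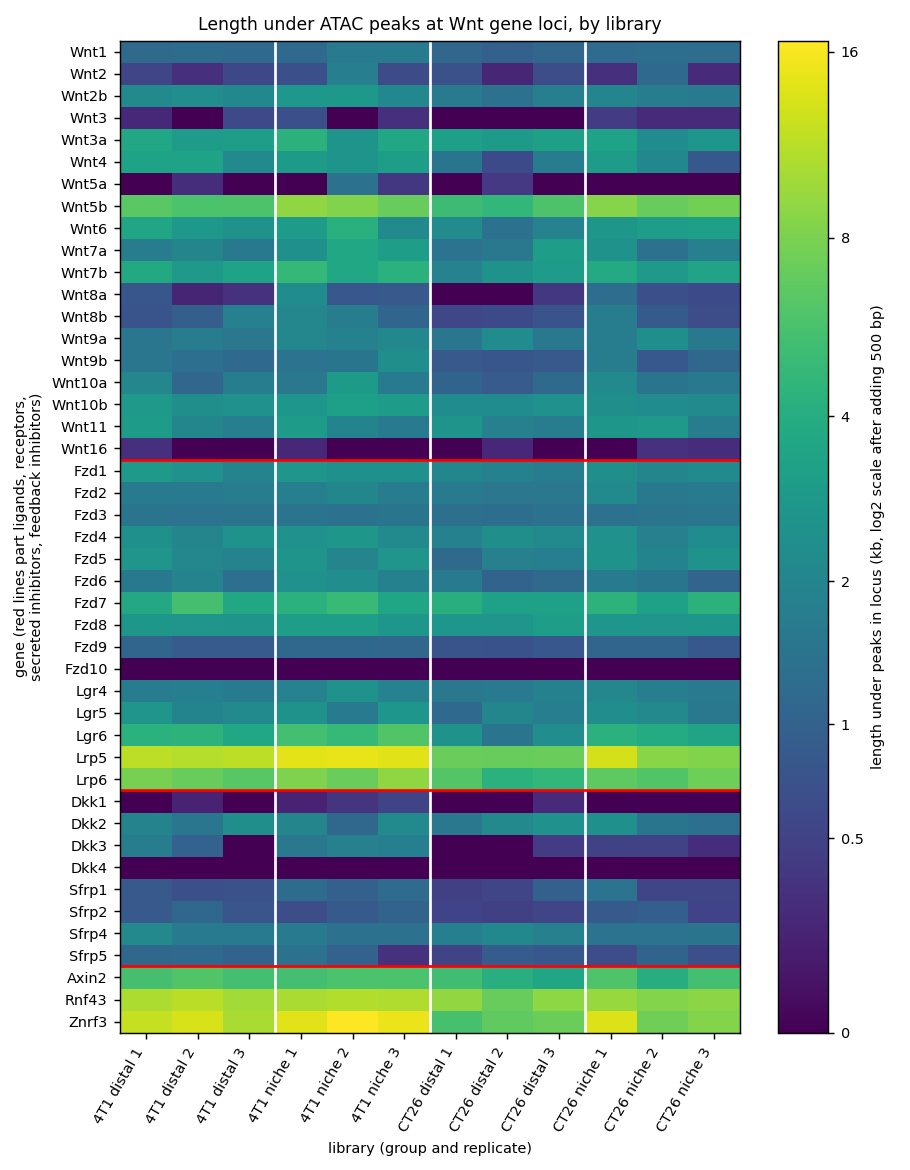
Length under peaks in kb (colour, log2 scale after adding 500 bp) at the 45 loci (rows, parted by role) in each of the 12 libraries (columns). Lrp5, Znrf3 and Rnf43 are bright throughout, and Fzd10 and Dkk4 are at 0 in every library.

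Merged across libraries, peaks in the member loci formed 212 regions. Of these, 90 (42.5%) were held by all 12 libraries, close to the 44.9% of regions in loci of all genes, and 29 (13.7%) by a single library. The receptors had 37 of 69 regions in every library (53.6%), the feedback inhibitors 17 of 43, the ligands 30 of 79 and the secreted inhibitors 6 of 21 (28.6%). Peaks were also ranked by the authors' −log10 p within each library. By this rank the region over the start of Lgr4 (chr2:109917234-109918304) stood at the 98.5th percentile, at a median fold enrichment of 7.44. A region within Wnt7a (chr6:91388953-91389799) stood at the 98.0th. Lgr4 is a receptor for R-spondins, and Wnt7a encodes a ligand.

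Windows of 17 of the 29 members lay under a peak in all 12 libraries (58.6%, against 55.7% of 17274 genes). With peaks of a −log10 q of at least 5 the order turned, at 11 of 29 members (37.9%) against 49.1% of genes, as it did with each library cut to an equal number of peaks (48.3% against 53.8%). The 17 were 9 of 15 ligands, 6 of 8 receptors, both feedback inhibitors with a window (Axin2 and Rnf43) and 0 of 4 secreted inhibitors. The windows of Wnt3, Wnt8b, Wnt16, Fzd10, Dkk1 and Sfrp5 were under no peak in any library. The Lgr6 window printed above was under a peak in all libraries except CT26 distal replicate 2. The Wnt6 window was under a peak in 3 of 3 4T1 distal libraries and 1 of 3 CT26 distal libraries, and in 0 of 6 niche libraries. All 12 libraries held the merged region that covers most of this window and runs downstream of it (chr1:74771669-74773546), and in the other 8 libraries their own peaks in it began beyond the window. The Wnt10b window was under a peak in 4T1 distal replicate 1 and in 4T1 niche replicates 1 and 3, and in 0 of 6 CT26 libraries.

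**Figure D2:**
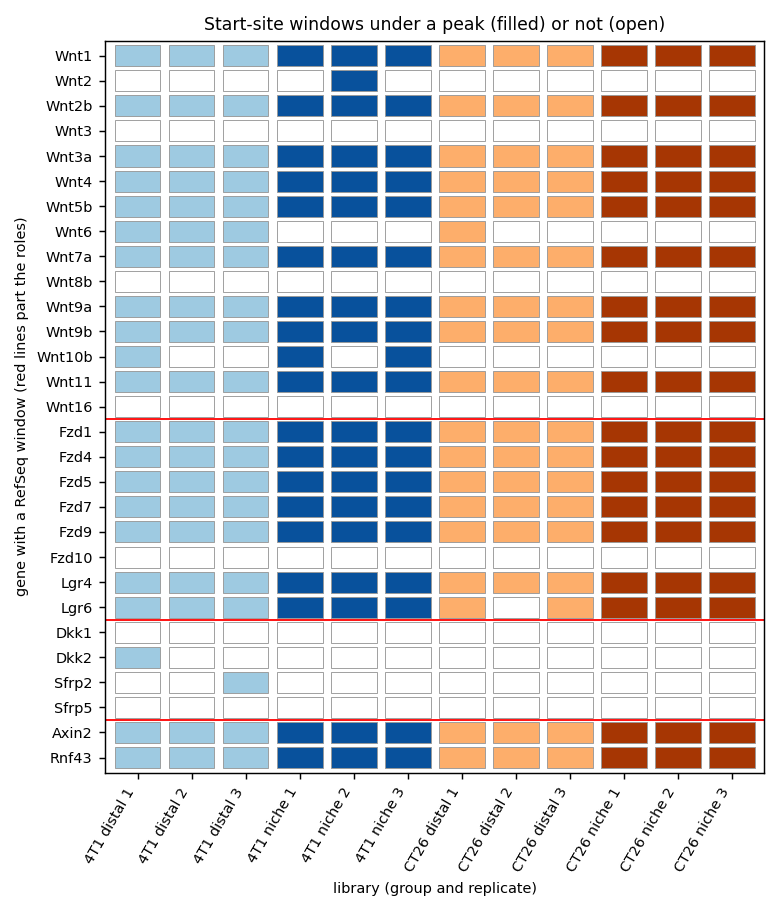
Start-site windows of the 29 members with a RefSeq window (rows, parted by role) in each library (columns); filled cells are windows under a peak by at least 1 bp. 17 rows are filled throughout and 6 are empty.

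In these sorted cells a shorter covered length can come from fewer cells of a type or from less accessibility per cell, which cannot be told apart. To ask whether Wnt gene loci differ between niche and distal AT2 cells, levels were compared with limma over the 16823 loci that had peaks in 3 or more libraries, 43 of them members. In the 4T1 model 0 members passed an adjusted p of 0.05, where 0.624% of all loci did. 5 members had an unadjusted p under 0.05 (Rnf43, Sfrp4, Wnt5b, Wnt7a and Wnt8a), against 2254 of all 16823 loci. In the CT26 model 1 member passed, Sfrp4, where 0.672% of all loci did, and over both models again Sfrp4 alone passed, where 2.38% of all loci did. Of the 43 members 22 had a positive change in 4T1 and 18 in CT26, with medians of 0.00 and -0.02 on the log2 scale, beside medians of -0.05 and -0.04 over all loci. Summed over members, the covered length was 2.61 to 2.77 kb per Mb in 4T1 distal, 2.71 to 2.74 in 4T1 niche, 2.62 to 2.70 in CT26 distal and 2.63 to 2.86 in CT26 niche libraries, and the groups overlapped. In unscaled length, 11 members had all 4T1 niche libraries above all 4T1 distal libraries (27.5% of all loci did) and 12 had this in CT26 (33.5% of all loci did). Scaling sets the direction of small changes: without it, the median over all loci moved from -0.05 to 0.12 in 4T1 and from -0.04 to 0.18 in CT26. Changes below are on the scaled log2 (length + 500 bp) scale unless stated.

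**Figure D3:**
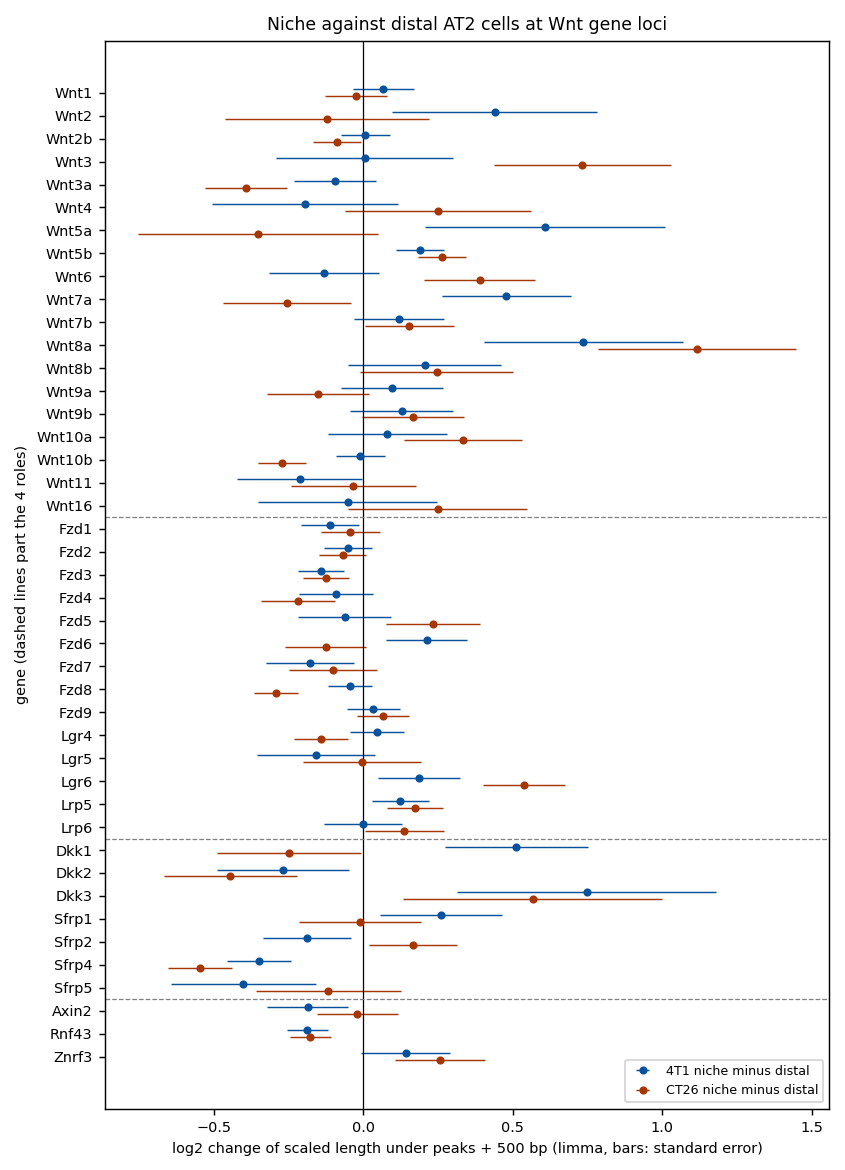
Niche minus distal log2 change of scaled length under peaks for the 43 members tested (points, limma; bars, standard error), by gene and by tumour model; dashed lines part ligands, receptors, secreted inhibitors and feedback inhibitors. Sfrp4 lies below 0 in both models (-0.35 and -0.55) and Wnt8a above 0 in both (0.74 and 1.12).

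Among the 19 ligands 0 passed in limma in either model (3 had an unadjusted p under 0.05 in 4T1 and 5 in CT26), and 13 of 19 had a positive change in 4T1, 10 of 19 in CT26. Over all 16823 loci, 2254 had an unadjusted p under 0.05 in 4T1 and 3194 in CT26. A positive change was seen at 38.6% of all loci in 4T1 and 42.1% in CT26. Wnt5b (chr6:119432531-119544824), a ligand best known for signalling without beta-catenin, had the clearest split in length. Its locus held 6.46, 5.85 and 5.88 kb under peaks in the 4T1 distal libraries and 8.99, 8.26 and 7.00 kb in the 4T1 niche libraries. It held 5.13, 4.70 and 5.92 kb in the CT26 distal libraries and 8.52, 7.09 and 7.63 kb in the CT26 niche libraries. All 6 niche libraries thus lay above all 6 distal libraries in unscaled length, which 1.72% of all loci also did. After scaling the 6 niche libraries overlapped the 6 distal libraries, and the 4T1 groups overlapped too. The scaled CT26 lengths were 6.41, 6.32 and 7.25 kb in distal and 8.04, 7.82 and 8.38 kb in niche libraries. The change over both models was 0.23 ± 0.057 (SE; limma adjusted p = 0.0568) with scaling and 0.45 (limma adjusted p = 0.00499) without, where 23.7% of all loci passed. In CT26 alone it was 0.26 (limma adjusted p = 0.134). Of the 12 regions of the locus, 5 were held by every library, those over the upstream and the downstream start site printed above among them. A region upstream of the downstream start site (chr6:119452125-119452459) was held by 2 of 3 4T1 niche and 3 of 3 CT26 niche libraries, and by 1 of 6 distal libraries. The locus also holds Fbxl14.

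Wnt8a, a ligand of early embryonic patterning, had the largest positive change over both models, 0.93 ± 0.24 (SE; limma adjusted p = 0.0568), from a short covered length. Its 4T1 distal libraries held 0.789, 0.226 and 0.323 kb and its 4T1 niche libraries 2.28, 0.814 and 0.844 kb. Its CT26 distal libraries held 0, 0 and 0.392 kb and its CT26 niche libraries 1.28, 0.688 and 0.602 kb. In each model every niche library lay above every distal library in unscaled length, though the lowest niche values lay below the highest 4T1 distal value once the models were put together. Without scaling the change over both models was 1.01 (limma adjusted p = 0.0175).

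The other ligands with large changes rested on few peaks. Wnt3, a ligand of stem cell niches in other epithelia, had a single region (chr11:103809949-103810670, within the gene), with 0 kb in the 3 CT26 distal libraries and 0.429, 0.261 and 0.277 kb in the 3 CT26 niche libraries. In 4T1 it was 0.251, 0 and 0.594 kb in distal and 0.678, 0 and 0.320 kb in niche libraries, so the 4T1 groups overlapped. The CT26 change was 0.73 (limma adjusted p = 0.218). Of the 212 regions 1 (0.472%) was held by all 3 CT26 niche and 0 of 3 CT26 distal libraries, against 1.56% of regions in loci of all genes. Wnt5a, a ligand made by lung mesenchyme, had peaks in 4T1 distal replicate 2 (0.290 kb), 4T1 niche replicates 2 and 3 (1.39 and 0.391 kb) and CT26 distal replicate 2 (0.401 kb), and in no CT26 niche library. Its 4T1 change was 0.61 (limma adjusted p = 0.508).

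The canonical ligand Wnt3a held 3.67, 3.02 and 3.07 kb in 4T1 distal, 4.32, 2.61 and 3.63 kb in 4T1 niche, 3.16, 2.95 and 3.21 kb in CT26 distal and 3.39, 2.30 and 2.70 kb in CT26 niche libraries. Its CT26 change was -0.39 (limma adjusted p = 0.171), with overlapping unscaled lengths. Wnt7b, expressed by lung epithelium in development, held 3.78, 2.88 and 3.36 kb in 4T1 distal, 4.80, 3.63 and 4.28 kb in 4T1 niche, 1.89, 2.56 and 2.96 kb in CT26 distal and 3.85, 2.84 and 3.43 kb in CT26 niche libraries. Wnt4, a ligand of kidney and gonad development, held 3.41, 3.38 and 2.22 kb in 4T1 distal, 2.94, 2.61 and 3.15 kb in 4T1 niche, 1.48, 0.602 and 1.71 kb in CT26 distal and 3.04, 2.12 and 0.819 kb in CT26 niche libraries. For Wnt7b and Wnt4, niche and distal libraries overlapped within each model.

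The remaining ligands had changes over both models between -0.14 (Wnt10b, limma adjusted p = 0.162) and 0.23 (Wnt8b, limma adjusted p = 0.46) for the 9 ligands Wnt1, Wnt2, Wnt2b, Wnt8b, Wnt9a, Wnt9b, Wnt10a, Wnt10b and Wnt16. Wnt10b, whose window appears above, held the narrowest span among them relative to its length, 2.18 to 3.18 kb over the 12 libraries. Wnt2, a ligand of the lung mesenchyme, held 0.236 to 1.76 kb in its single region, with the longest values in 4T1 niche replicate 2 and CT26 niche replicate 2. The others held 0.977 to 1.67 kb (Wnt1), 1.39 to 2.82 kb (Wnt2b), 0.567 to 2.09 kb (Wnt8b), 1.51 to 2.40 kb (Wnt9a), 0.792 to 2.40 kb (Wnt9b), 0.878 to 2.93 kb (Wnt10a) and 0 to 0.323 kb (Wnt16).

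Among the 14 receptors and coreceptors tested 0 passed in limma in either model (0 had an unadjusted p under 0.05 in 4T1 and 2 in CT26), and 5 had a positive change in each. Of all 16823 loci, 2254 and 3194 had an unadjusted p under 0.05 in 4T1 and CT26, and 38.6% and 42.1% had a positive change. Lgr6 (chr1:134983300-135105374), a receptor for R-spondins that marks epithelial stem cells in skin, came nearest among those with positive changes. Its locus held 4.26, 4.41 and 3.65 kb in the 4T1 distal libraries and 5.50, 4.86 and 6.05 kb in the 4T1 niche libraries. It held 2.55, 1.45 and 2.34 kb in the CT26 distal libraries and 4.27, 3.88 and 3.44 kb in the CT26 niche libraries. Within each model all niche libraries lay above all distal libraries in unscaled length. The scaled change was 0.54 in CT26 (limma adjusted p = 0.0949) and 0.36 ± 0.097 (SE) over both models (limma adjusted p = 0.0645). Without scaling it was 0.57 over both models (limma adjusted p = 0.0081), and with each library cut to an equal number of peaks it was -0.07. 2 regions within the gene were held more often in 4T1 than in CT26 libraries: one (chr1:135016842-135017389) was held by all 6 4T1 libraries, 0 of 3 CT26 distal and 2 of 3 CT26 niche libraries, and the other (chr1:135018681-135021304) by all 6 4T1 libraries, 1 CT26 distal and 2 CT26 niche libraries.

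Lgr5, a receptor of the same family, held 2.66, 1.97 and 2.22 kb in 4T1 distal, 2.59, 1.67 and 2.70 kb in 4T1 niche, 1.17, 2.05 and 1.79 kb in CT26 distal and 2.33, 2.13 and 1.56 kb in CT26 niche libraries. The groups overlapped, and the change over both models was -0.08 with a 95% interval of -0.39 to 0.22. Lgr4 held 1.73, 1.81 and 1.68 kb in 4T1 distal and 1.88, 2.53 and 1.89 kb in 4T1 niche libraries, which did not overlap, and 1.57, 1.63 and 1.86 kb in CT26 distal and 2.06, 1.77 and 1.64 kb in CT26 niche libraries, which did. After scaling the 4T1 groups overlapped, while the CT26 niche libraries (1.94, 1.95 and 1.80 kb scaled) all lay below the CT26 distal libraries (1.96, 2.20 and 2.28 kb scaled), by little; the change was -0.14 (limma adjusted p = 0.406).

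The coreceptor Lrp6 held 7.79, 7.04 and 6.38 kb in 4T1 distal, 8.22, 7.19 and 9.06 kb in 4T1 niche, 6.16, 4.26 and 4.69 kb in CT26 distal and 6.68, 6.11 and 7.39 kb in CT26 niche libraries. Niche libraries overlapped distal libraries in each model, with a change of 0.07 over both (limma adjusted p = 0.677). The Frizzled receptors, which bind the ligands, did not pass between niche and distal cells. Fzd3, which acts in planar polarity, held 1.45, 1.42 and 1.44 kb in 4T1 distal, 1.46, 1.41 and 1.46 kb in 4T1 niche, 1.34, 1.28 and 1.38 kb in CT26 distal and 1.40, 1.46 and 1.499 kb in CT26 niche libraries. Fzd1 held 2.86, 2.49 and 1.93 kb in 4T1 distal, 2.66, 2.46 and 2.43 kb in 4T1 niche, 2.02, 1.87 and 1.72 kb in CT26 distal and 2.39, 2.00 and 2.20 kb in CT26 niche libraries, so niche and distal libraries overlapped in each model. Across the 12 libraries Fzd7 held 3.26 to 5.53 kb, Fzd4 1.84 to 2.76 kb, Fzd5 1.20 to 2.67 kb, Fzd6 1.05 to 2.51 kb and Fzd9 0.713 to 1.15 kb. Fzd8 had a scaled change of -0.29 in CT26 (limma adjusted p = 0.0924) at nearly equal unscaled lengths: 2.70, 2.67 and 3.09 kb in CT26 distal and 2.72, 2.66 and 2.75 kb in CT26 niche libraries. In 4T1 it held 2.73, 2.67 and 2.62 kb in distal and 3.11, 3.09 and 2.72 kb in niche libraries, which overlapped. At Fzd6 a region 5588 bp from the gene (chr15:39000078-39000561) was held by the 3 4T1 niche libraries and by no other library. Of the 212 regions 2 (0.943%) were held by all 3 4T1 niche and 0 of 3 4T1 distal libraries, against 2.41% of regions in loci of all genes.

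Sfrp4 (chr13:19623175-19632825), a secreted protein that binds Wnt ligands, fell in the CT26 niche and over both models, and was the only member to pass between niche and distal cells. Its CT26 distal libraries held 1.79, 2.09 and 1.84 kb and its CT26 niche libraries 1.43, 1.42 and 1.46 kb. Its 4T1 distal libraries held 2.13, 1.64 and 1.61 kb and its 4T1 niche libraries 1.68, 1.41 and 1.37 kb. The CT26 groups did not overlap, which 0.44% of all loci also showed downwards in unscaled length, and the 4T1 groups overlapped unless scaled. The scaled level fell by 0.55 on the log2 scale in CT26 (SE 0.11, limma adjusted p = 0.0455) and by 0.45 over both models (SE 0.076, limma adjusted p = 0.0177), and in 4T1 the change was -0.35 (limma adjusted p = 0.202). The changes of the 2 models differed by -0.20 (CT26 minus 4T1; interaction, limma adjusted p = 0.802). The locus had 3 regions. The regions at the lower end of the gene (chr13:19622704-19623545) and in the neighbouring gene Epdr1 (chr13:19619011-19619923) were held by all 12 libraries. The third, 2779 bp beyond the other end of the gene (chr13:19635604-19636620), was held by all 3 CT26 distal libraries and 4T1 distal replicate 1, and by 0 of 6 niche libraries. It was a low-ranking region, at the 11.0th percentile of the authors' −log10 p. Of the 212 regions, it was the 1 held by all 3 CT26 distal and 0 of 3 CT26 niche libraries (0.472%, against 0.103% of regions in loci of all genes). With flanks of 2 kb, which leave out that region and the one in Epdr1, the CT26 change was 0.02. Without scaling (-0.31, limma adjusted p = 0.0579), with 100 bp added, with flanks of 50 kb, with a −log10 q of at least 5, with equal numbers of peaks and with the replicate block, the CT26 call was also lost, and with flanks of 2 kb, a −log10 q of at least 5 or equal numbers of peaks so was the call over both models. The CT26 call held under 1 of 12 settings that leave out a library, that without 4T1 distal replicate 1; the call over both models was lost without 4T1 niche replicate 2 (limma adjusted p = 0.0546).

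**Figure D4:**
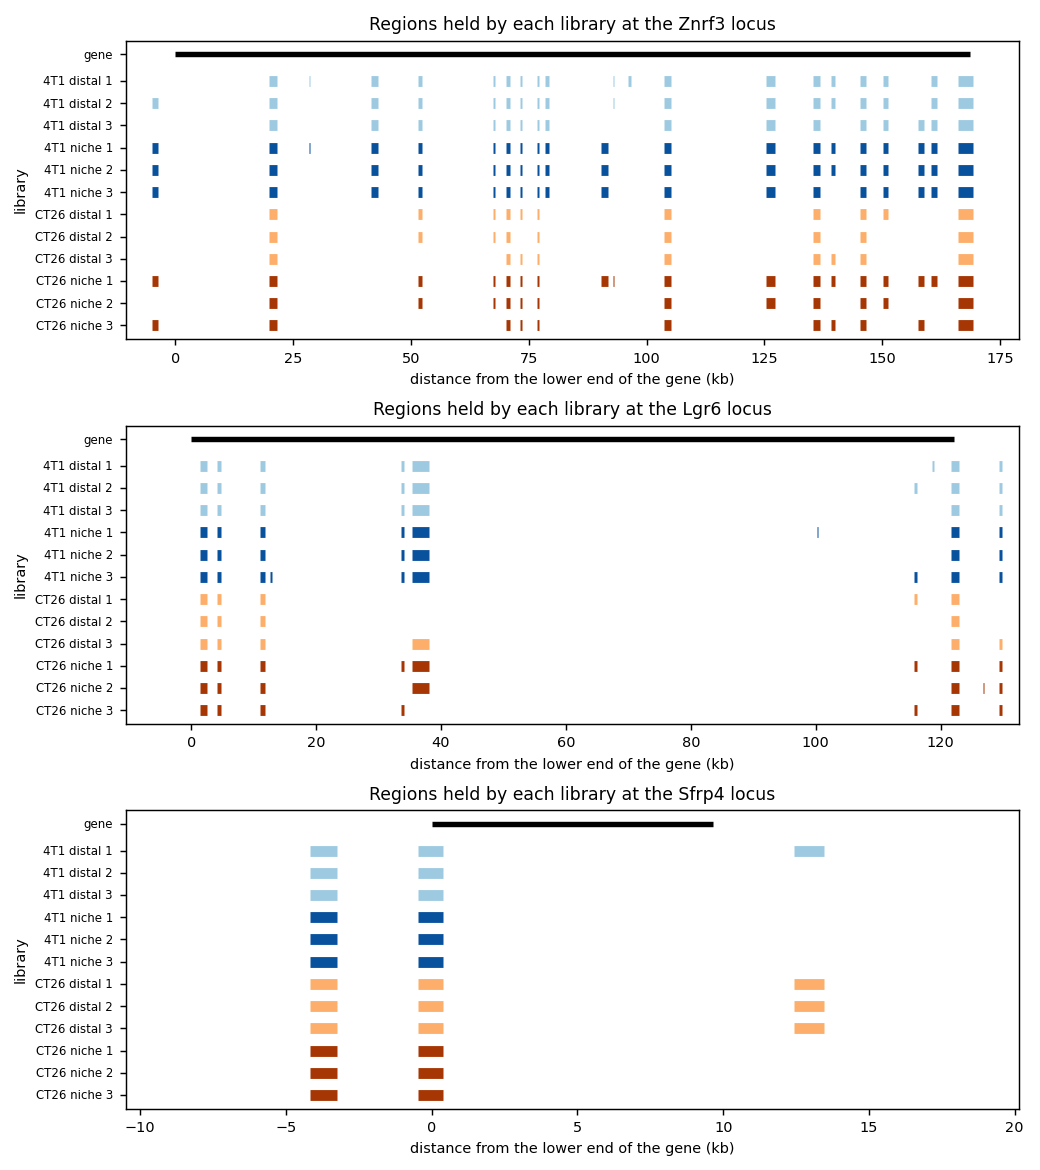
Merged regions held by each library (rows, coloured by group) at the Znrf3, Lgr6 and Sfrp4 loci, by distance in kb from the lower-coordinate end of the gene (black bar). A block shows the extent of the merged region, not of the library's own peak. The region to the right of Sfrp4 is held by 4 distal and 0 niche libraries.

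The other 6 secreted inhibitors tested did not pass in limma between niche and distal cells, and of these 1, Dkk2, had an unadjusted p under 0.05 there, over both models (4167 of all 16823 loci did). Dkk3 (chr7:112116019-112159482), a divergent Dickkopf protein, had the largest positive changes among them, 0.75 in 4T1 (limma adjusted p = 0.46) and 0.57 in CT26 (limma adjusted p = 0.492). Its 4T1 distal libraries held 1.72, 1.02 and 0 kb, its 4T1 niche libraries 1.57, 1.84 and 1.79 kb, its CT26 distal libraries 0, 0 and 0.433 kb and its CT26 niche libraries 0.504, 0.491 and 0.295 kb. The 4T1 distal libraries spanned 0 to 1.72 kb, and niche and distal libraries overlapped in each model. Dkk2, which can inhibit or activate the pathway through Lrp6, held 1.92, 1.49 and 2.42 kb in 4T1 distal, 2.01, 1.16 and 2.16 kb in 4T1 niche, 1.57, 2.14 and 2.49 kb in CT26 distal and 2.44, 1.48 and 1.32 kb in CT26 niche libraries. Its groups overlapped, with changes of -0.27 and -0.45 (limma adjusted p = 0.606 and 0.296).

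Dkk1, a coreceptor antagonist, had no peak in CT26 niche libraries, 0.274 kb in CT26 distal replicate 3, 0.203 kb in 4T1 distal replicate 2, and 0.203, 0.351 and 0.529 kb in the 4T1 niche libraries. Sfrp5, a ligand-binding inhibitor like Sfrp4, held 1.15, 1.17 and 1.04 kb in 4T1 distal, 1.36, 1.03 and 0.324 kb in 4T1 niche, 0.529, 0.908 and 0.818 kb in CT26 distal and 0.654, 1.07 and 0.685 kb in CT26 niche libraries. Its 4T1 change of -0.40 (limma adjusted p = 0.479) rested on 4T1 niche replicate 3. Sfrp1 held 0.849, 0.688 and 0.707 kb in 4T1 distal and 1.25, 0.979 and 1.23 kb in 4T1 niche libraries, without overlap before scaling. After scaling its lowest 4T1 niche value (0.7971 kb) all but met its highest 4T1 distal value (0.7968 kb). Sfrp1 held 0.483, 0.541 and 0.976 kb in CT26 distal and 1.43, 0.549 and 0.547 kb in CT26 niche libraries, which overlapped. Its 4T1 change was 0.26 (limma adjusted p = 0.586), and 8.08% of all loci were higher without overlap in 4T1 after scaling. Sfrp2 held 0.840, 1.16 and 0.775 kb in 4T1 distal, 0.658, 0.869 and 1.04 kb in 4T1 niche, 0.517, 0.477 and 0.547 kb in CT26 distal and 0.860, 0.939 and 0.524 kb in CT26 niche libraries, with overlap in both models.

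The 3 feedback inhibitors did not pass between niche and distal cells in limma, and 1, Rnf43, had an unadjusted p under 0.05 in each model. Of all 16823 loci 2254 did so in 4T1 and 3194 in CT26. Axin2 (chr11:108917828-108950783), the target gene that limits beta-catenin and marks alveolar stem cells, held 5.54, 6.03 and 5.51 kb in 4T1 distal and 5.45, 5.85 and 5.77 kb in 4T1 niche libraries. It held 5.33, 4.09 and 3.51 kb in CT26 distal and 6.01, 4.01 and 5.48 kb in CT26 niche libraries. Niche and distal libraries overlapped in unscaled length in both models, whereas after scaling all 3 4T1 niche libraries lay below all 3 4T1 distal libraries, as at 19.5% of all loci. The change over both models was -0.10 with a 95% interval of -0.31 to 0.11, and 0.12 without scaling. 4 of its 8 regions, that over the start site printed above among them, were held by all 12 libraries. Rnf43 (chr11:87663087-87735539) held 10.6, 11.4 and 9.95 kb in 4T1 distal, 10.5, 10.9 and 10.7 kb in 4T1 niche, 9.13, 7.08 and 8.90 kb in CT26 distal and 9.47, 8.47 and 8.75 kb in CT26 niche libraries, with overlap of these unscaled lengths in both models. After scaling its 4T1 niche libraries (8.52, 8.85 and 9.23 kb) all lay below its 4T1 distal libraries (9.94, 10.56 and 10.01 kb). This, too, is a pattern shown by 19.5% of all loci. The scaled CT26 groups of Rnf43 overlapped. The scaled change of Rnf43 over both models was -0.18 ± 0.049 (SE; limma adjusted p = 0.0626), and without scaling it was 0.05. Znrf3 (chr11:5276329-5444847) held 12.1, 13.4 and 10.4 kb in 4T1 distal and 14.2, 16.7 and 14.99 kb in 4T1 niche libraries. It held 5.60, 6.76 and 7.21 kb in CT26 distal and 13.8, 7.43 and 8.37 kb in CT26 niche libraries. All niche libraries lay above all distal libraries of the same model in unscaled length, with 1 CT26 niche library far above the other two. The scaled change over both models was 0.20 (limma adjusted p = 0.26). Of 22 regions at Znrf3, 7 were held by all 12 libraries. One within the gene (chr11:5366562-5368163) was held by all 3 4T1 niche libraries, CT26 niche replicate 1 and 0 of 6 distal libraries. With the region at Fzd6 it made up the 2 member regions held in 4T1 by niche libraries only (0.943%, against 2.41% of regions in loci of all genes).

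Whether the niche change differed between the models was tested as an interaction. 0 members passed in limma, where 0.0594% of all loci did, and 4 members had an unadjusted p under 0.05 (Dkk1, Fzd8, Wnt7a and Wnt10b) against 1482 of all loci. The largest differences, CT26 change minus 4T1 change, were -0.96 for Wnt5a, -0.76 for Dkk1 and -0.73 for Wnt7a, and 0.73 for Wnt3, 0.52 for Wnt6 and 0.44 for Wnt4. Their adjusted p ranged from 0.509 to 0.864 in limma. Wnt7a held 1.70, 1.99 and 1.58 kb in 4T1 distal and 2.46, 3.63 and 3.15 kb in 4T1 niche libraries, with no overlap. In CT26 it held 1.42, 1.55 and 3.07 kb in distal and 2.59, 1.37 and 1.82 kb in niche libraries, which overlapped. Wnt6, at a locus it shares in part with Wnt10a, held 3.56, 2.80 and 2.58 kb in 4T1 distal and 3.03, 4.25 and 2.19 kb in 4T1 niche libraries, which overlapped, and 2.24, 1.37 and 1.89 kb in CT26 distal and 2.75, 3.14 and 3.18 kb in CT26 niche libraries, which did not.

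More members passed between the tumour models than between niche and distal cells. In CT26 against 4T1 lungs over both sites, 10 of 43 members passed, where 24.1% of all loci did, so the share is near the background. Of these, 6 were higher in CT26 (19.2% of all loci were) and 4 were lower (4.89% of all loci were). Lower in CT26 were the coreceptor Lrp5 (-0.23 ± 0.067 SE, limma adjusted p = 0.0311), Lgr6 (-0.32, limma adjusted p = 0.0343), Znrf3 (-0.39, limma adjusted p = 0.0246) and Dkk3 (-0.95, limma adjusted p = 0.0442). Without scaling they were -0.58, -0.65, -0.74 and -1.11 and passed, at a setting where 46.4% of all loci passed, nearly all of them lower in CT26, so this adds no support. 0 members passed in limma when each library was cut to its 42067 peaks of highest −log10 p, where 9 had an unadjusted p under 0.05 and 0.585% of loci passed. Of the 16060 loci tested there, 2875 had an unadjusted p under 0.05. At that setting Lgr6 turned to 0.36.

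Lrp5 (chr19:3584825-3686585) held 11.5, 11.1 and 11.6 kb in 4T1 distal and 14.3, 14.8 and 14.1 kb in 4T1 niche libraries, against 7.13, 7.06 and 7.17 kb in CT26 distal and 13.1, 8.68 and 8.35 kb in CT26 niche libraries. The CT26 distal libraries lay below all the others, and CT26 niche replicate 1, which had the longest covered length of its group, lay among the 4T1 libraries. At Znrf3, 2 regions within the gene (chr11:5317919-5319257 and chr11:5354743-5355595) were held by all 6 4T1 libraries and by 0 of 6 CT26 libraries, the only such regions among the 212 (0.943%, against 0.312% of regions in loci of all genes). In unscaled length Rnf43 and the ligand Wnt2b were lower in all 6 CT26 libraries than in all 6 4T1 libraries, as were 7.41% of all loci. Leaving out 1 library at a time ended the call of Dkk3 in 10 of 12 settings, of Lrp5 in 9, of Lgr6 in 7 and of Znrf3 in 4.

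The 6 members with higher scaled levels in CT26 were the receptors Fzd2 (0.24), Fzd3 (0.24), Fzd8 (0.29) and Lgr4 (0.20), the ligand Wnt5b (0.22) and the inhibitor Sfrp4 (0.31), with limma adjusted p from 0.00916 for Fzd8 to 0.0441 for Lgr4. For 5 of them the sign turned without scaling, to -0.05 for Fzd2, -0.04 for Fzd3, -0.03 for Fzd8, -0.10 for Lgr4 and -0.12 for Wnt5b, and Sfrp4 came to 0.02. Fzd2, whose locus is a single region held by every library, held 1.63, 1.67 and 1.71 kb in 4T1 distal and 1.65, 1.52 and 1.53 kb in CT26 distal libraries. Its niche libraries held 1.80, 2.02 and 1.71 kb in 4T1 and 2.22, 1.60 and 1.62 kb in CT26. The same scaling moved the median of all loci from 0.08 with scaling to -0.21 without, and the share of calls that were higher in CT26 from 79.7% to 0.269%. For these 5 genes the direction between the models is thus set by the choice of scaling. Differences between models short of the threshold were -0.51 for Wnt4 (limma adjusted p = 0.111) and 0.32 for Wnt11 (limma adjusted p = 0.13). With the replicate block Wnt11 passed (limma adjusted p = 0.0331) and Dkk3 did not (limma adjusted p = 0.0657). Wnt11, a ligand of beta-catenin-independent signalling, held 2.97, 2.05 and 1.77 kb in 4T1 distal, 2.97, 1.96 and 1.61 kb in 4T1 niche, 2.63, 1.82 and 1.72 kb in CT26 distal and 2.77, 2.85 and 1.73 kb in CT26 niche libraries, with all 4 groups overlapping.

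**Figure D5:**
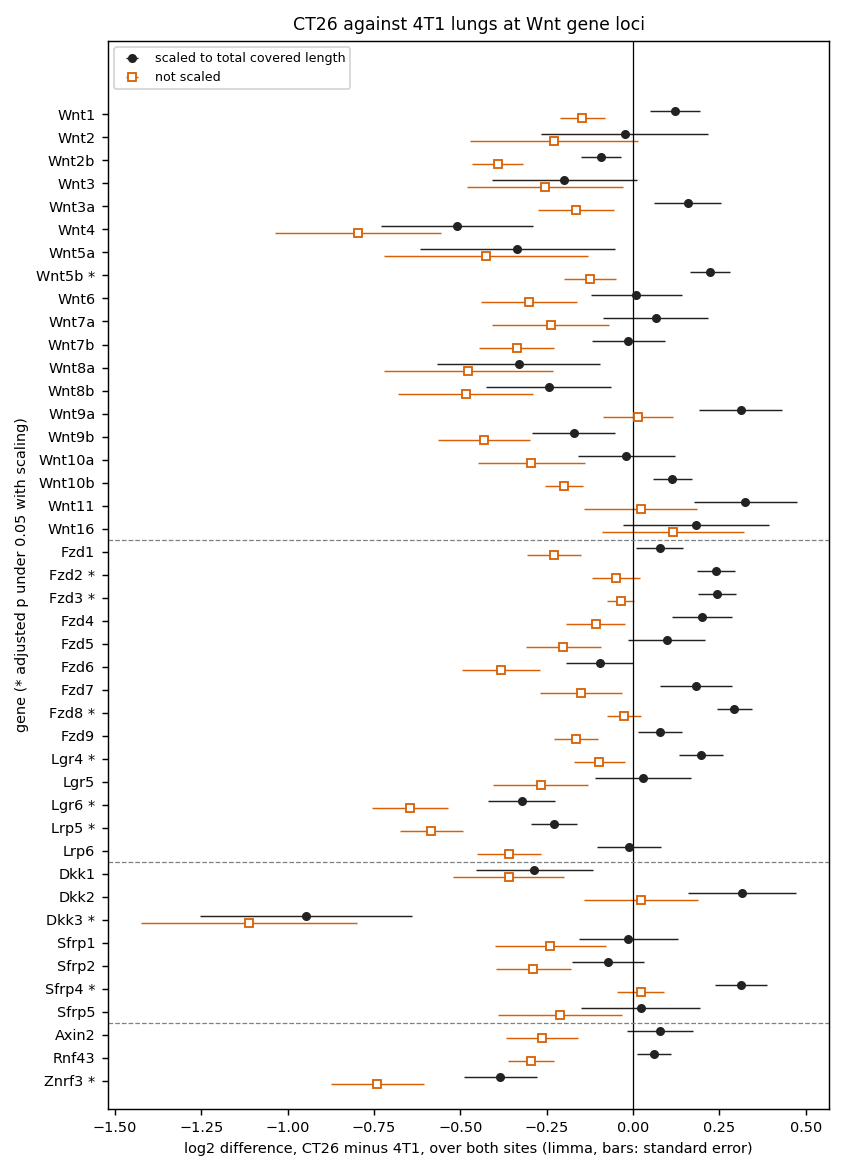
CT26 minus 4T1 log2 difference over both sites for the 43 members tested (limma; bars, standard error), with scaling to total covered length (filled) and without (open). Lrp5, Lgr6, Znrf3 and Dkk3 lie below 0 under both, and Fzd2, Fzd3, Fzd8, Lgr4 and Wnt5b lie on different sides of 0.

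Beyond the ligands, receptors and inhibitors chosen by symbol, 51 other genes of the pathway were listed and 50 tested. They comprised genes of ligand secretion and agonists, alternative receptors, other inhibitors (secreted or in the membrane), signal transduction (Dvl1 and Ctnnb1 among them), nuclear factors and targets. Between niche and distal cells, 0 passed in 4T1 and 0 over both models in limma. There 8 and 12 had an unadjusted p under 0.05, beside 2254 and 4167 of all 16823 loci. In CT26 1 gene passed and rose, where 0.672% of all loci passed. This was Cd44, a hyaluronan receptor and Wnt target, at 1.96 ± 0.265 kb (SD, n = 3) in CT26 distal and 3.91 ± 1.09 kb (SD, n = 3) in CT26 niche libraries, a change of 0.59 (limma adjusted p = 0.0435). In 4T1 it held 4.49 ± 0.121 kb in distal and 5.16 ± 0.411 kb in niche libraries (SD, n = 3 each), a change of -0.01; the difference of the 2 changes, 0.60, did not pass (interaction, limma adjusted p = 0.245). Between the models 8 were higher in CT26 and 5 lower, 13 of 50 beside 24.1% of all loci. Of the 8 higher ones, Frzb kept its sign without scaling (0.55), and Vangl1, Vangl2, Draxin, Tpbg, Axin1, Gsk3a and Sp5 turned to values from -0.15 to -0.02. The lower ones were Cd44, the kinase genes Gsk3b and Csnk1a1 of the beta-catenin destruction complex, the coactivator Bcl9 and the Wnt5a receptor Ror2. Ror2 held 0.657 ± 0.200 kb in 4T1 distal and 1.68 ± 0.359 kb in 4T1 niche libraries, against 0.192 ± 0.333 and 0.370 ± 0.334 kb in CT26 distal and niche libraries (SD, n = 3 each), a difference of -0.96 (limma adjusted p = 0.0211). Frzb, a secreted inhibitor, had the largest difference in the other direction, 0.80 (limma adjusted p = 0.00976), with 0.285 ± 0.255 kb in 4T1 distal and 1.12 ± 0.295 kb in 4T1 niche libraries, against 1.12 ± 0.357 and 1.13 ± 0.177 kb in CT26 distal and niche libraries (SD, n = 3 each). The niche libraries of the models thus held like lengths.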

How the data were processed

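Omni-ATAC-seq broad peak lists of 12 libraries, 3 in each of 4 groups, were used as deposited. Per the submitters' processing notes, MACS2, bedtools and the GRCm38 build were used; versions, the aligner and read filters are not stated in the labels. The lists hold positions with the authors' score, their fold (a ratio of signal over background) and −log10 p and q values as deposited by the authors, the lowest −log10 q being 1.00. They hold no read counts, so the depth behind each value is unknown.

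For each of 21631 protein-coding genes (RefSeq GRCm38.p6, 19 autosomes and X) covered length was added up from 10 kb before the gene to 10 kb after it, scaled to the mean total covered length, and compared as log2 (length + 500 bp) by limma (3.58.1, under R 4.3.3), fitting a mean per group with 8 residual degrees of freedom and an empirical Bayes trend. Benjamini-Hochberg adjustment covered the 16823 loci that had peaks in 3 or more libraries, at a threshold of 0.05. Counts of calls, group values and overlaps were made in Python 3.11.15 with pandas 2.3.3. Peaks overlapping by at least 1 bp in any library were merged into regions. RefSeq start-site windows matched 29 of the 45 members by symbol; the others are not used here. The script was tested on simulated data with planted changes. The samples are labelled as biologically independent, and p-values measure the spread between these pools. Nothing in the labels says that replicate numbers pair samples across groups, so the main fit left pairing out.

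The members and all gene lists were chosen with earlier results of these data known. The genes given library by library were those past the threshold in any comparison, the 3 largest changes in each direction per comparison, and a list of 20 members. Alternatives changed the scaling, flank, added length, filter, −log10 q minimum, number of peaks, replicate block and libraries.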

Additional observations from a re-analysis of the deposited data

How the results depend on the processing

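In 4T1 and for the interaction, 0 members passed under every alternative run. In CT26, 2 members passed without scaling (Lgr6 and Wnt5b; 2027 of 16823 loci did) and 0 with 100 bp added, with flanks of 2 or 50 kb, with a −log10 q of at least 5, with the same number of peaks from each library and with the replicate block; leaving out 1 library gave 0 to 1, with 1 only without 4T1 distal replicate 1. Over both models, 9 passed without scaling (23.7% of all loci did), 2 with flanks of 50 kb (Sfrp4 and Wnt8a), and 0 with flanks of 2 kb or the same number of peaks. Leaving out 1 library gave 0 to 3 there: 0 without 4T1 niche replicate 2, and 3 without CT26 distal replicate 3, which adds Wnt5b and Wnt8a; without CT26 distal replicate 1 or 2 it gave 2, adding Lgr6 or Rnf43. With a −log10 q of at least 5 the 1 member that passed was Lrp5. Between the models, 14 passed without scaling (46.4% of all loci did), 0 with the same number of peaks and 5 to 8 with 1 library left out: 5 without CT26 niche replicate 2 or 3, and 6 without 4T1 distal replicate 1 or 2 or 4T1 niche replicate 1 or 3. Start windows under a peak in all libraries went from 17 to 11 with a −log10 q of at least 5 (37.9% of members, 49.1% of genes).

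No pairing by replicate number was found (18 correlations of deviations from -0.0903 to 0.0892), though with 3 libraries a group this cannot exclude pairing. With the replicate block the CT26 call of Sfrp4 was lost (limma adjusted p = 0.0835) while 1 member passed over both models. Between the models Dkk3 was lost (limma adjusted p = 0.0657) and Wnt11 gained (limma adjusted p = 0.0331), with 10 members passing.

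Signs turned as follows, and the cause was not tested. Without scaling, the change over both models was 0.12 for Axin2, 0.11 for Lgr5 and 0.0482 for Rnf43, and the difference between models was -0.0497 for Fzd2, -0.0353 for Fzd3, -0.0262 for Fzd8, -0.0979 for Lgr4 and -0.12 for Wnt5b. With the same number of peaks, it was 0.0250 for Axin2 and -0.0738 for Lgr6 over both models, and 0.36 for Lgr6 and 0.17 for Wnt4 between models. With a −log10 q of at least 5, Dkk2 came to 0.43 in CT26, 0.18 over both and -0.69 between models, Lgr5 to 0.0371 and Rnf43 to 0.0777 over both, Wnt11 to -0.0230 between models, Wnt3a to 0.0744 in CT26 and Wnt7a to 0.11 for the interaction. With flanks of 2 kb, Sfrp4 came to 0.0212 in CT26 and Wnt4 to -0.0335 for the interaction, and with 50 kb Wnt11 came to -0.13 between models. Leaving out 1 library gave -0.18 to 0.00934 for Lgr5 over both, above 0 without 4T1 niche replicate 2 and, at 0.00203, without CT26 distal replicate 2.

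Standard errors of members within a model ran from 0.0686 to 0.434 on the log2 scale, so small changes were not detectable.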
